A study of Drosophila melanogaster with 4 samples.

Results

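The interior of arm 3L, the left arm of chromosome 3 of *Drosophila melanogaster*, carried 3066 of the 18424 regions of histone H3 enrichment (clusters) listed for the whole series. A cluster was counted as interior when its midpoint lay from 3L 2000001 to 22543557 on FlyBase release 5, which leaves out 2 Mb at each end of the arm and keeps 20.5 Mb. Within the arm, membership was set by position, not by length or score. At the telomere side the last cluster left out was 3L 1997712-2000516 (score 0.44) and the first kept was 3L 2001972-2002972 (0.48). At the centromere side the last kept was 3L 22534854-22536010 (0.34) and the first left out was 3L 22542948-22545078 (0.45).

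The data came from chromatin immunoprecipitation and sequencing (ChIP-seq) of whole wild-type embryos of the Oregon-R strain (Oregon-R-modENCODE) at 14 to 16 h of development, bred in population cages and fixed with formaldehyde. There were 2 ChIP libraries made with 1 antibody against H3, and 2 input libraries of genomic DNA, each with the replicate number of a ChIP library. Genotype, strain and stage were shared by all 4 libraries, and many animals were pooled in each. Whether the replicates were separate embryo collections is not given by the labels, so the spread between them may be technical. Each ChIP library had its own cluster list, and a further list covered the series as a whole. Read depth was unknown, so precision is given here by the number of clusters and by the spread between the replicate lists. The clusters of 1 list share their libraries and are not independent replicates of the embryos.

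H3 is a core histone: a pair of H3 molecules sits in every nucleosome, the unit around which DNA is wrapped. Antibodies against H3 that do not select a modification therefore follow nucleosome content, which is known to be lower at active promoters and enhancers and more even over the bodies of genes and in silent chromatin. The interior of a fly arm is mostly gene-rich euchromatin, and toward the centromere it passes into repeat-rich heterochromatin. No gene annotation or sequence of release 5 was used here, so clusters are given by position only and no sequences are shown.

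Clusters were spread over the whole interior of 3L and were far fewer in the replicate lists. Series-wide there were 149 clusters per Mb, which covered 24.4% of the interior. Replicate 1 held 618 clusters (30.1 per Mb, 4.92% covered) and replicate 2 held 337 (16.4 per Mb, 2.65% covered), a replicate mean of 23.2 ± 9.67 clusters per Mb (SD, n = 2). The difference in density between the series-wide list and either replicate was thus larger than the spread between the replicates. The series-wide density was 64.1 per Mb when clusters scored in the lower 50% were left out, and 90.6 per Mb when clusters shorter than the shortest replicate cluster (1301 bp) were left out.

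Density on 3L lay close to that on 2L, below that on 3R and above that on X, with 2 Mb left out at each end of every arm. The ratio of 3L to 3R was 0.873 series-wide (exact 95% Clopper-Pearson interval 0.832 to 0.915), 0.866 in replicate 1 and 0.791 in replicate 2, a replicate mean of 0.829 ± 0.054 (SD, n = 2). The ratio of 3L to X was 1.21 (1.14 to 1.27), 1.44 and 1.21 in the same order of lists, a replicate mean of 1.32 ± 0.16 (SD, n = 2). Each of these 6 departures from 1 passed an exact two-sided binomial test, with a Benjamini-Hochberg adjusted p over 9 tests of 4.9e-08, 0.013 and 0.0019 against 3R and of 8.6e-11, 6.1e-08 and 0.031 against X. Against 2L the ratio was 1.03 (0.973 to 1.08), 1.06 (0.940 to 1.19) and 1.05 (0.893 to 1.23), and the exact binomial test was not passed in any list (adjusted p = 0.39, 0.39 and 0.58). The tests cover counting error only and count clusters as if they were independent. Counts per 100-kb bin on 3L varied more than that (variance over mean 1.29 to 1.55, given below). The intervals are thus likely too narrow and the adjusted p too low. The binomial result for replicate 2 against X (adjusted p = 0.031) is the least secure of the 6. A score cut common to all arms keeps more clusters of an arm with higher scores, so ratios under it are descriptions without a test. Among the upper 50% of clusters by score, cut in this way, 3L over X turned to 0.638 and 3L over 2L reached 1.10. This turn went with the scores of the arms: the median series-wide score was 0.41 on 3L and 0.47 on X, and the medians of the replicates were also lower on 3L, at 0.54 against 0.62 in replicate 1 and 0.68 against 0.80 in replicate 2.

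Lengths and scores of the interior 3L clusters filled a narrow range with a few long and a few high-scored exceptions. Series-wide clusters were 1001 to 12137 bp long with a median of 1433 bp, and 25% were at most 1165.5 bp and 25% at least 1857 bp. Replicate 1 clusters had a median of 1547.5 bp (1301 to 3755 bp) and replicate 2 clusters a median of 1494 bp (1301 to 4397 bp). The replicate lists held none under 1301 bp, so these medians are not like for like. Series-wide clusters of at least 1301 bp had a median of 1747 bp, above that of either replicate. On the authors' log2 scale the median score was 0.41 series-wide, 0.54 in replicate 1 and 0.68 in replicate 2. The series-wide scores had a 5th percentile of 0.31 and a 95th percentile of 0.50. The other interiors gave series-wide median lengths of 1416 bp on 2L, 1453 bp on 3R and 1426 bp on X, and median scores of 0.40, 0.41 and 0.47. These medians are descriptions without a test.

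Along the arm, density varied several-fold between 100-kb bins, and no bin was empty series-wide. Over the 205 complete bins the series-wide count ran from 5 to 27 with a median of 14. Replicate 1 counts ran from 0 to 12 with a median of 3, and replicate 2 counts from 0 to 8 with a median of 1. The variance over the mean, which is 1 for independent placement at a constant rate, was 1.55 series-wide, 1.29 in replicate 1 and 1.39 in replicate 2, so bins differed more than such counts would. It was 0.823 in the series-wide list once neighbours within 1000 bp were merged. Merging leaves no gap of 1000 bp or less, which by itself lowers this value, so 0.823 cannot be read against 1. On the other interiors the series-wide value was 1.55 on 2L, 1.31 on 3R and 1.53 on X. The share of a bin covered by series-wide clusters ran from 6.53% to 64.3% with a median of 23.4%.

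**Figure D1:**
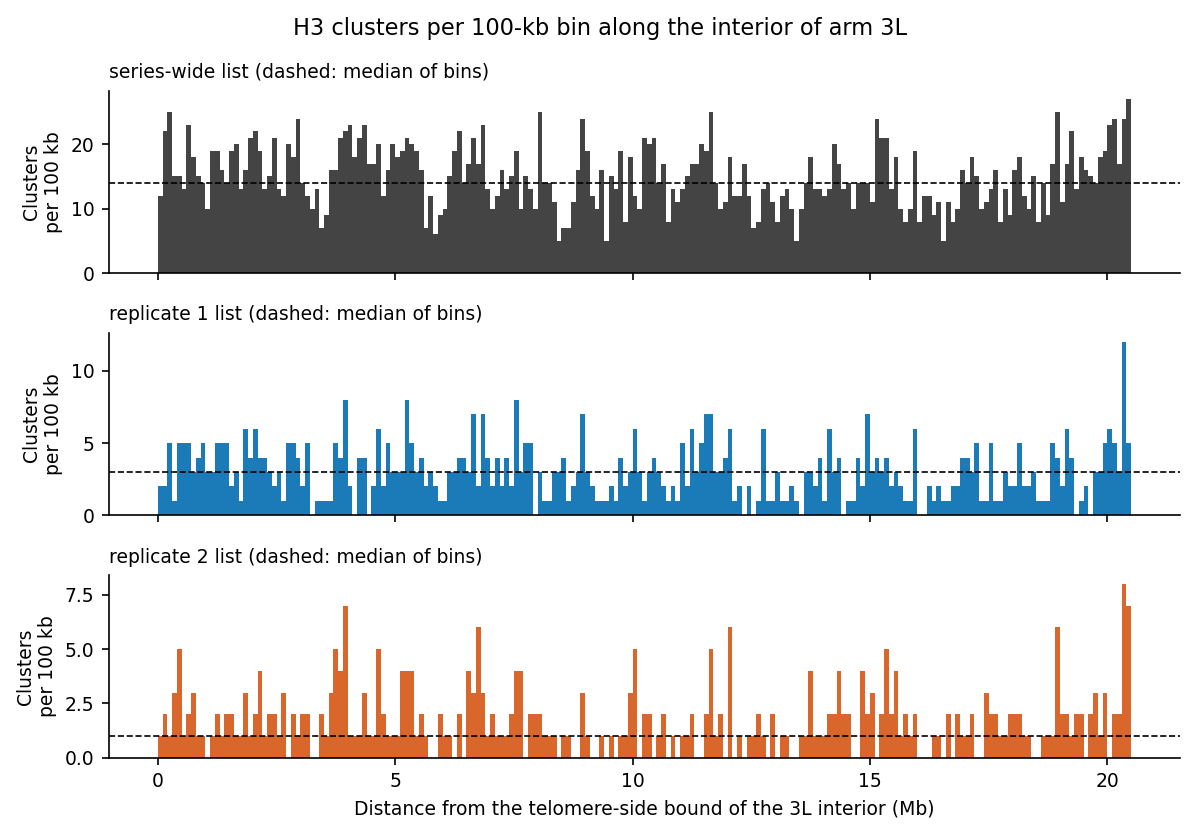
Clusters per 100-kb bin (y axis) against the distance from the telomere-side bound of the 3L interior in Mb (x axis), for the 3 lists, with a dashed line at the median of the bins. The highest bars of both replicates, 12 and 8 clusters, stand in the same bin near the centromere side, which holds the longest cluster, and the series-wide list has no empty bin.

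The densest bin of the series-wide list was 3L 22400001-22500000 with 27 clusters, in which replicate 1 had 5 and replicate 2 had 7. Next came 4 bins with 25 clusters each, namely 3L 2200001-2300000 (5 in replicate 1 and 1 in replicate 2), 3L 10000001-10100000 (3 and 2), 3L 13600001-13700000 (7 and 5) and 3L 20900001-21000000 (4 and 6). In all 5 of these bins replicate 1 reached its median of 3 and replicate 2 its median of 1, levels that a middling bin also reaches. The sparsest were 3L 10400001-10500000, 3L 11400001-11500000, 3L 15400001-15500000 and 3L 18500001-18600000 with 5 clusters each, and 3L 7800001-7900000 with 6. Replicate 2 had 0 clusters in each of these 5 sparse bins, while replicate 1 had 3, 1, 1, 1 and 2. Over all 205 bins replicate 2 was empty in 43 and replicate 1 in 12. The ranking list is marked by its name as built on these replicates, so low counts are in part built in.

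The replicate lists followed the same ordering of bins in their averages. The 41 densest bins by the series-wide count held 21.9 clusters each on average, and replicate 1 had 4.59 and replicate 2 had 2.49 there. The 41 sparsest held 8.49, with 1.49 and 0.878. The name of the list marks it as built on the same 2 replicates, so this ordering is in part built in. Between the replicates alone the rank correlation over the 205 bins was 0.310 and Pearson's r was 0.442. Neighbouring bins share the arm and both replicates were listed on the same genome, so these correlations are descriptions without a p. A bin with no replicate 1 cluster occurred 12 times and one with no replicate 2 cluster 43 times. Only 4 bins had a cluster in neither replicate, and in these the series-wide list had 8 to 17.

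Bins with more clusters had somewhat longer ones and no higher scores. Over the 205 bins the series-wide count had a rank correlation of 0.248 with the median length and of -0.0084 with the median score. The bin medians of length ran from 1105 to 2233 bp and those of score from 0.36 to 0.48. A bin's count was also related to that of the next bin, with a rank correlation of 0.387 series-wide, 0.172 in replicate 1 and 0.109 in replicate 2.

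In 5 segments of equal length (4.11 Mb), density was highest at the telomere side, lower in the middle of the arm and higher again toward the centromere, a description without a test. The series-wide list had 166, 159, 142, 130 and 149 clusters per Mb from segment 1 at the telomere side to segment 5. Replicate 1 had 34.3, 33.3, 30.2, 22.6 and 29.9, and replicate 2 had 19.5, 18.7, 11.9, 14.6 and 17.3. The first and second segments were thus the densest in all 3 lists, but the lowest point was segment 4 (3L 14326136-18434846) in the series-wide list and in replicate 1 and segment 3 (3L 10217424-14326135) in replicate 2. In replicate 2 the low point rests on 49 clusters. Median length stayed between 1387 and 1500 bp and median score between 0.40 and 0.41 over the segments of the series-wide list.

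**Figure D2:**
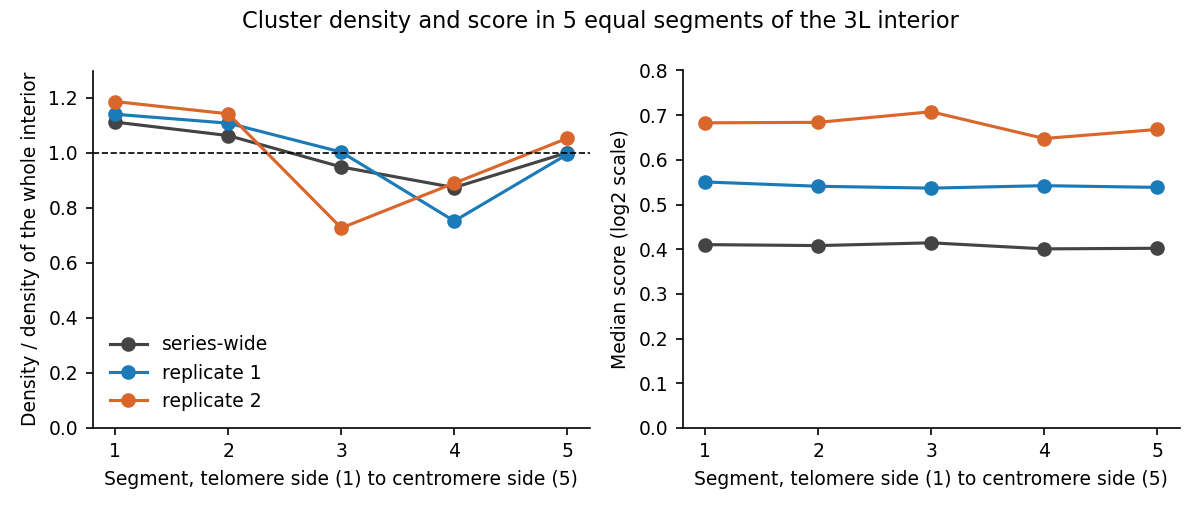
Left, cluster density of each segment divided by the density of the whole 3L interior (dashed line at 1); right, median score on the log2 scale; x axis, segments 1 to 5 from the telomere side to the centromere side, for the 3 lists. Density is lowest in segment 4 series-wide (0.874) and in replicate 1 (0.752) and in segment 3 in replicate 2 (0.727), while the series-wide and replicate 1 scores are nearly flat and replicate 2 runs from 0.65 to 0.71.

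Neighbouring series-wide clusters on 3L were mostly a few kb apart. The median gap from the end of a cluster to the start of the next was 2913 bp series-wide, with 25% of gaps at most 1099 bp and 25% at least 6651 bp. It was 19310 bp for replicate 1 and 38164.5 bp for replicate 2, as the shorter lists imply. Gaps under 1 kb made up 23.6% of the 3065 series-wide gaps, 5.35% of those in replicate 1 and 2.98% in replicate 2. The smallest gap of the 3 lists measured 3, 2 and 40 bp. On the other interiors the series-wide median gap was 3189 bp on 2L, 2532 bp on 3R and 3753 bp on X.

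**Figure D3:**
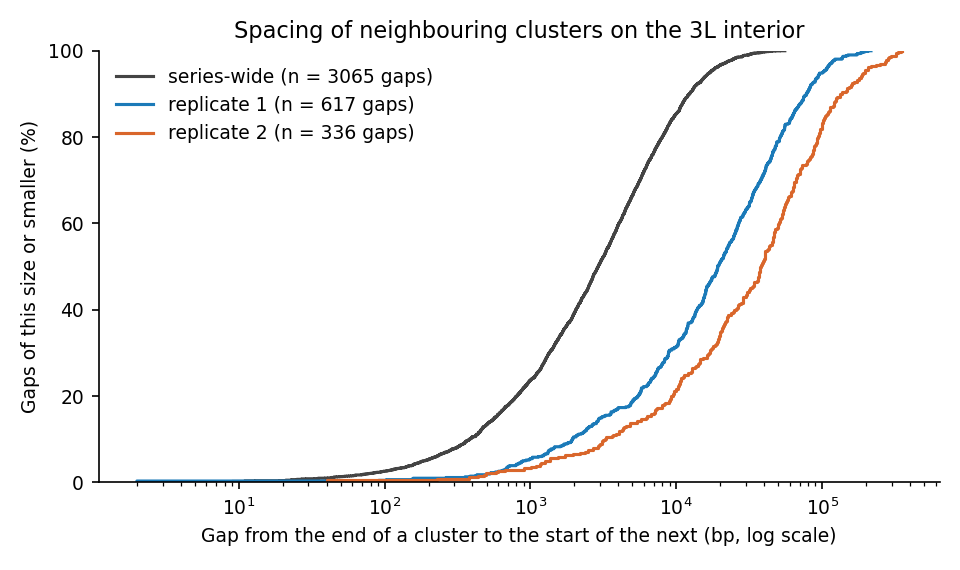
Share of gaps (y axis, percent) at or below a given size (x axis, bp on a log scale) between neighbouring clusters of the 3L interior, 1 line per list. The series-wide line crosses 50% at 2913 bp, the replicate 1 line at 19310 bp and the replicate 2 line at 38164.5 bp.

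The longest stretches free of series-wide clusters were many times the median gap in length. The first 3 in length were 3L 18734961-18790465 (55505 bp), 3L 7650775-7702149 (51375 bp) and 3L 5229583-5277281 (47699 bp), and neither replicate listed a cluster in any of them. Next, 3L 17752431-17797773 (45343 bp), met the edge of 1 replicate 2 cluster, 3L 17797700-17799579. The last of the 5 longest, 3L 7824613-7869591 (44979 bp), met the edge of 1 replicate 1 cluster, 3L 7869550-7871658. Over all 105 gaps longer than 20 kb, which together made up 14.4% of the interior, 79 held no cluster of either replicate, 16 held or touched one of replicate 1, 10 one of replicate 2, and 0 both. Of the replicate clusters, 603 of 618 in replicate 1 and 324 of 337 in replicate 2 overlapped a series-wide cluster. Few could thus lie wholly in a gap, and these counts are largely built in.

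Most interior clusters of 3L were listed in neither replicate, at shares close to those of the whole series-wide list. Of the 3066 clusters, 597 overlapped replicate 1 by at least 1 bp (19.5%, exact 95% interval 18.1 to 20.9), against 19.6% of all 18424 series-wide clusters. Overlap with replicate 2 was found for 332 (10.8%, interval 9.75 to 11.98), against 11.5%. Replicate 1 alone was met by 510 (16.6%, against 16.6%) and replicate 2 alone by 245 (7.99%, against 8.44%). Both replicates were overlapped by 87 (2.84%, interval 2.28 to 3.49), against 3.04%, and neither by 2224 (72.5%, interval 70.9 to 74.1), against 71.9%. These shares do not set 3L apart from the series. The intervals cover counting error only.

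Seen from the replicates, nearly every cluster had a series-wide counterpart and few had one in the other replicate. Of the replicate 1 clusters on the 3L interior, 603 of 618 (97.6%) overlapped the series-wide list, against 98.2% over all sequences, and of replicate 2 clusters 324 of 337 (96.1%), against 95.9%. Between the replicates, 78 of 618 replicate 1 clusters (12.6%, against 13.8% over all sequences) overlapped replicate 2, and 77 of 337 replicate 2 clusters (22.8%, against 23.2%) overlapped replicate 1. In the 78 pairs the replicate 2 score was the higher in all but 5, and the median difference of replicate 1 minus replicate 2 was -0.13. This difference was not particular to the pairs, as the whole lists had median scores of 0.54 and 0.68 on the interior. Across these pairs the scores had a rank correlation of 0.283 and the lengths one of 0.048. The midpoints of a pair were 276.5 bp apart in the median.

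The 15 replicate 1 clusters and 13 replicate 2 clusters without a series-wide counterpart were short and mostly near one. Their median length was 1407 and 1410 bp, and the nearest series-wide cluster was 1016 and 814 bp away in the median. The longest were 3L 5104953-5106521 in replicate 1 (1569 bp), which was also that list's highest-scored cluster on the interior, and 3L 3488442-3490681 in replicate 2 (2240 bp, score 0.67). The next in replicate 1 were 3L 3045126-3046652 (0.45), 3L 20883856-20885370 (0.47), 3L 15779141-15780645 (0.28) and 3L 2216360-2217806 (0.63). In replicate 2 they were 3L 8707154-8708842 (0.63), 3L 8567761-8569423 (0.55), 3L 2136447-2138022 (0.68) and 3L 15758545-15760096 (0.61).

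Longer clusters overlapped the replicates more often, although a longer interval also has more room to overlap. Of the 1204 clusters under 1301 bp, a length below which the replicate lists held none, 71 (5.90%) overlapped a replicate and 0 overlapped both. From 1301 bp to under 2 kb the share was 32.9% of 1321, from 2 to under 3 kb 55.8% of 387, from 3 to under 4 kb 77.1% of 109, and at 4 kb or longer 82.2% of 45. The median score changed little over these classes, at 0.42, 0.39, 0.43, 0.43 and 0.44. Clusters that overlapped both replicates had a median length of 2601 bp and a median score of 0.46, against 1293 bp and 0.40 for those in neither. Among the 154 clusters of 3 kb or longer (5.02% of interior clusters, against 5.11% of the series), 33 were in neither replicate.

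**Figure D4:**
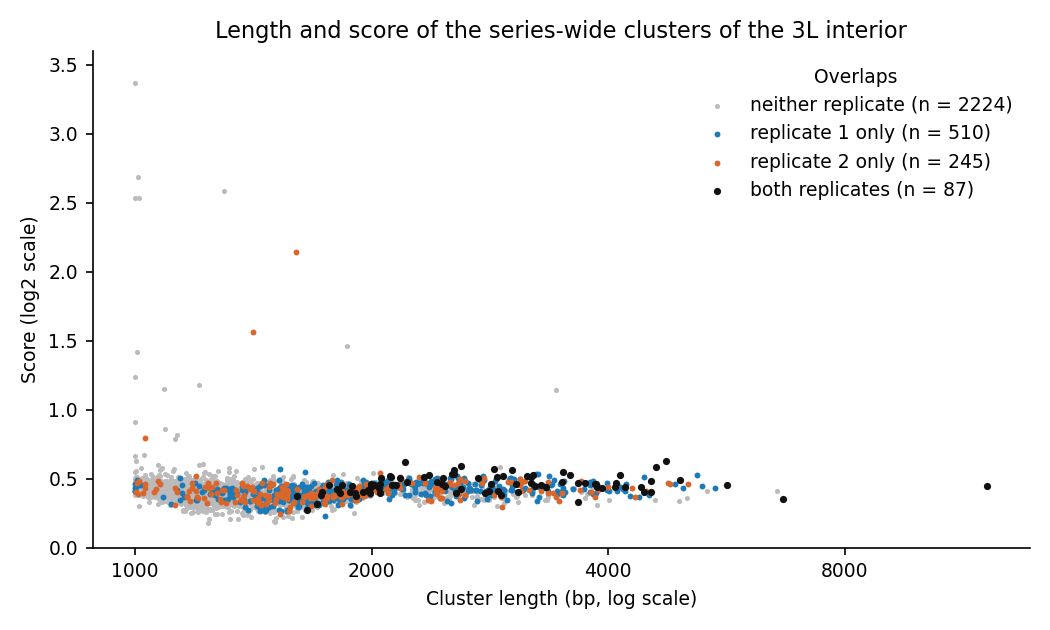
Score on the log2 scale (y axis) against length in bp on a log axis (x axis) for the 3066 series-wide clusters of the 3L interior, coloured by the replicate lists they overlap. Of the 13 points above a score of 1, 9 are shorter than 1301 bp, and points that overlap both replicates start at 1609 bp.

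The highest scores on the interior of 3L belonged mostly to short clusters. Of the 10 highest-scored series-wide clusters, 8 overlapped no replicate cluster, 2 overlapped replicate 2, and 0 overlapped replicate 1. Over all interior clusters 72.5% were in neither replicate, and of those under 1301 bp 5.90% overlapped one, so the count of 8 does not set the top scores apart. The top one was 3L 13525008-13526008, 1001 bp long with a score of 3.36. It was followed by 3L 14263888-14264896 (1009 bp, 2.69), 3L 5113514-5114810 (1297 bp, 2.59), 3L 5109916-5110916 (1001 bp, 2.53) and 3L 9385650-9386660 (1011 bp, 2.53). The sixth, 3L 5457358-5458960 (score 2.14), met a replicate 2 cluster, 3L 5455929-5457512 (1.40), only at its telomere-side edge. That replicate 2 cluster overlapped 2 series-wide clusters. The seventh, 3L 6034384-6035798 (1.57), overlapped a replicate 2 cluster with a score of 3.26. The remaining 3 of the 10 were 3L 20324140-20325998 (1.46), 3L 11564534-11565540 (1.42) and 3L 9533524-9534524 (1.24). In all, 13 clusters scored above 1, and 9 of these were under 1301 bp.

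These top scores stood in simple whole-number ratios to the most frequent score of the list. That score, 0.36, was shared by 358 series-wide clusters. On the linear scale (2 to the power of the score) the top cluster stood at exactly 8 times it, the second at 5 times, the third at 14/3, the next 2 at 9/2 and the sixth at 24/7. The value at 8 times occurred in 8 clusters of the whole list and the value at 5 times in 17. For the 10 longest clusters of the interior the same ratio had terms from 478 to 1074, and each value occurred once. The read counts behind the scores were not in the files used here, and their part in these scores was not tested.

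In replicate 1 a single interior cluster, 3L 5104953-5106521, scored above 1. Its score was 3.23 and the next was 0.82 at 3L 19753276-19755085. It overlapped no cluster of the series-wide list or of replicate 2, and the nearest series-wide cluster, 3L 5102160-5104108, lay 844 bp before it with a score of 0.49. Within 15 kb there were 6 series-wide clusters, of which 3L 5109916-5110916 (2.53) and 3L 5113514-5114810 (2.59) lay 3394 and 6992 bp beyond its end, and the other 4 scored 0.38 to 0.49. The remaining 8 of the 10 highest scores in replicate 1 ran from 0.69 to 0.71, and 3 of its 10 highest, 3L 17378023-17379743, 3L 9591182-9592532 and 3L 10967892-10970063, overlapped a replicate 2 cluster, against 12.6% of all replicate 1 clusters on the interior. In replicate 2, 4 clusters scored above 1, namely 3L 6034391-6035724 (3.26), 3L 5455929-5457512 (1.40), 3L 4436802-4438276 (1.04) and 3L 4674661-4675965 (1.01). Of the 10 highest in replicate 2, 2 overlapped replicate 1, namely 3L 11953203-11957599 and 3L 17312503-17313966, near the 22.8% of all replicate 2 clusters on the interior.

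The longest clusters lay mostly at moderate scores, and several stood close together near the centromere side. After the 12137-bp cluster described next came 3L 9040432-9047108 (6677 bp, score 0.35, 1 cluster in each replicate) and 3L 22219444-22225998 (6555 bp, 0.41, none in either). The others of the 10 longest measured 5031 to 5669 bp with scores of 0.36 to 0.53. Of these, 3L 22443510-22449178 overlapped 2 clusters of replicate 1 and 1 of replicate 2. Replicate 1 alone was overlapped by 3L 10975466-10980940, 3L 5843124-5848380 and 3L 13266462-13271650, the last with 3 clusters, and replicate 2 alone by 3L 12609282-12614338. Neither was overlapped by 3L 22386914-22392256 and 3L 20915378-20920408. Counting the longest itself, 4 of the 10 lay within 200 kb of it.

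The longest clusters of the replicates were shorter than the longest series-wide ones. In replicate 1 the first was 3L 17443109-17446863 (3755 bp, score 0.63), which overlapped a series-wide cluster of 4445 bp and no cluster of replicate 2. The next 3, 3L 3890490-3894237 (3748 bp), 3L 14407049-14410477 (3429 bp) and 3L 3329646-3333021 (3376 bp), each overlapped 1 cluster of replicate 2, and 3L 6338633-6341930 (3298 bp) overlapped none. In replicate 2 the first was 3L 11953203-11957599 (4397 bp, 0.99), which overlapped 1 replicate 1 cluster of 1466 bp. It was followed by 3L 5832760-5837072 (4313 bp) and 3L 13617346-13621126 (3781 bp), neither with a replicate 1 cluster, and by 3L 12033837-12037021 (3185 bp) and 3L 13841858-13844849 (2992 bp), both with 1 replicate 1 cluster.

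The longest cluster of the interior, 3L 22328194-22340330, measured 12137 bp, 8.47 times the median and 1.82 times the next. Its score of 0.45 was higher than or equal to 81.0% of interior clusters. It was chosen here for its length, which is therefore no finding. Replicate 1 listed 4 clusters inside it, 3L 22328350-22330187 (score 0.56), 3L 22331076-22332643 (0.55), 3L 22333143-22335975 (0.59) and 3L 22337628-22339065 (0.49). Replicate 2 listed 1, 3L 22338673-22340163 (0.54). Replicate 1 clusters covered 63.3% of its length and replicate 2 clusters 12.3%, and the clusters of the 2 lists shared 393 bp, near its centromere-side end. Replicate 2 had fewer clusters over the whole interior (337 against 618). Within 100 kb to each side, outside this cluster, it had nearly as many as replicate 1 (10 against 11). Why it listed fewer inside this cluster was not tested, and a cluster missing from its list sets no limit on enrichment there. No other interior cluster held more than 3 replicate clusters, but a longer cluster has more room for them. The cluster 3L 13266462-13271650 held 3 of replicate 1 in 5189 bp. The gaps from the 12137-bp cluster to its neighbours were 1201 bp on the telomere side and 333 bp on the centromere side.

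The surroundings of the 12-kb cluster held more clusters than the interior average in all 3 lists. With the cluster itself counted, its 100-kb bin, 3L 22300001-22400000, had 12 clusters in replicate 1 and 8 in replicate 2, the highest count of any bin of the interior in each replicate, where the next highest were 8 and 7. In the series-wide list this bin had 24, a count reached or passed by 10 bins in all, and 64.3% of it was covered. Without the longest cluster and the replicate clusters that overlap it, the bin held 23 series-wide clusters with 52.1% covered, against 56.2% in the next bin toward the centromere, and 8 clusters of replicate 1 and 7 of replicate 2, which only equal the next highest bins. Without this bin the correlation between the replicates over the other 204 bins was 0.299 by rank and 0.384 by Pearson's r. The next bin toward the centromere was the densest of the series-wide list, as given above.

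Within 100 kb to each side, the longest included, the series-wide list had 43 clusters, or 203 per Mb, 1.36 times the density of the interior. Replicate 1 had 15, 2.35 times its interior density, and replicate 2 had 11, 3.16 times. In the flanks alone, without the longest cluster and the replicate clusters in it, there were 42, 11 and 10 clusters, or 1.41, 1.83 and 3.05 times the density of the interior. Windows of the same 212.1 kb set at 10-kb steps along the interior had medians of 31, 6 and 3 clusters in the 3 lists and maxima of 54, 18 and 16. Of these 2034 windows, 217 held at least as many series-wide clusters, 28 at least as many of replicate 1 and 26 at least as many of replicate 2. Within 50 kb to each side the density was 1.61, 3.56 and 4.35 times that of the interior in the same order of lists, and within 200 kb it was 1.54, 2.18 and 2.81 times. Of the 43 clusters, 5 overlapped both replicates (11.6%, against 2.84% over the interior) and 24 overlapped neither (55.8%, against 72.5%). The median length was 1871 bp, against 1433 bp over the interior, and scores ran from 0.28 to 0.52, so none of the clusters scored above 1 lay among them. Toward the centromere there were 26 of these clusters and toward the telomere 16. On the telomere side a chain of 7 clusters with gaps of at most 1000 bp ran over 3L 22304032-22322894 and held 4 clusters of replicate 1 and 3 of replicate 2.

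**Figure D5:**
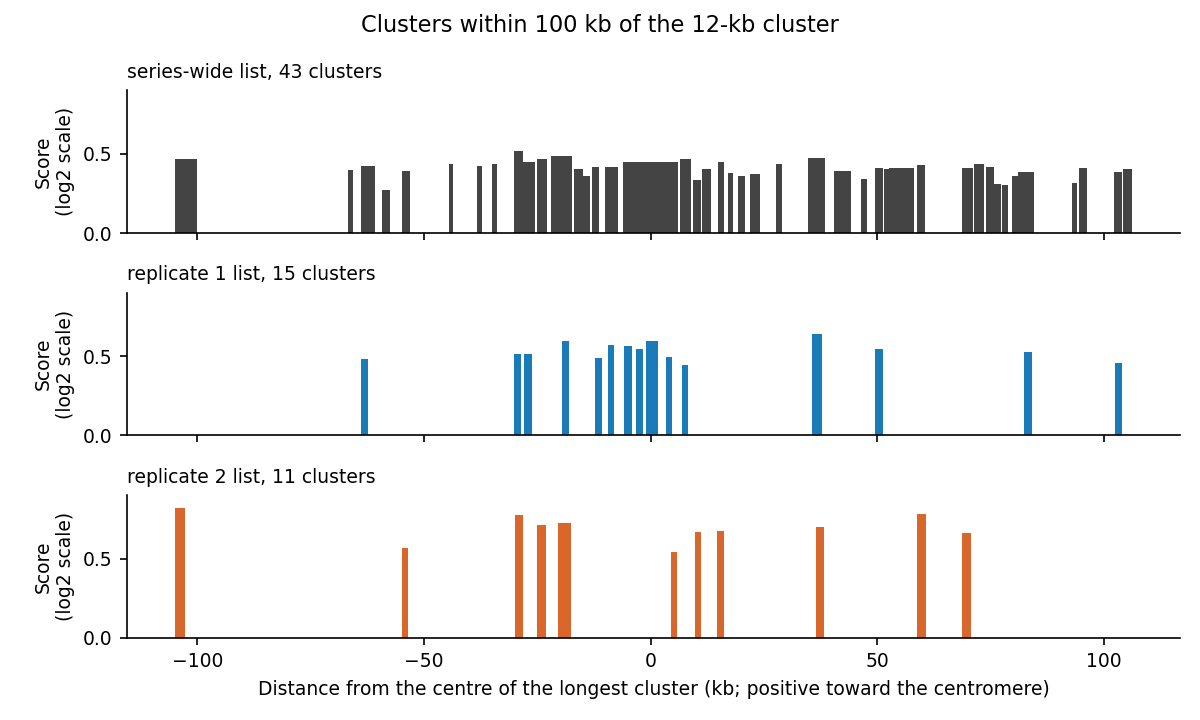
Clusters with midpoints from 100 kb before to 100 kb after the longest cluster, as bars from start to end (x axis, distance from its centre in kb, positive toward the centromere) with the score on the log2 scale as height, for the 3 lists from top to bottom. The broad bar at 0 is the 12137-bp cluster, under which replicate 1 has 4 clusters and replicate 2 has 1.

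The density of the interior carried on past its bound over the next bins. The 4 bins from 3L 22500001 to 22900000 held 17, 17, 11 and 15 series-wide clusters, around the interior median of 14. The bin 3L 22900001-23000000 held 4 and the next, 3L 23000001-23100000, held 1, below the lowest interior bin. The longest cluster stood 209.3 kb from the bound. How much of each bin was open to read placement was not measured.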

How the data were processed

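H3 ChIP-seq clusters of 2 ChIP replicates, each with an input of the same number, were analysed from 3 deposited lists. The authors' lists are on FlyBase release 5, per the file headers, and the submitters' processing notes name Bowtie 0.12.7. The cluster caller, its threshold and how replicates were joined remain not given in the sources used here. The authors gave each cluster 1 deposited score on a log2 scale, used here to describe and rank. That scale was taken from the values: as powers of 2, 99.7% of the series-wide scores, 99.1% of those of replicate 1 and 100% of those of replicate 2 were whole-number ratios (denominators to 1000, relative tolerance 1e-10) of their list's commonest score, against at most 2.05% in base e or 10. That it compares ChIP with input is not stated.

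Bins were 100 kb from the telomere-side bound, counted by midpoint, and overlap was at least 1 bp. Densities were compared by exact two-sided binomial tests of counts against lengths, with Clopper-Pearson intervals at 95%, adjusted over 3 arms and 3 lists, with a threshold of 0.05. The functions were checked on simulated data. Regions named are the 10 longest and 10 highest-scored series-wide clusters, the 10 highest-scored and 5 longest of each replicate, the 5 longest of each without a series-wide counterpart, the 5 densest and sparsest bins and the 5 longest gaps. Other regions, such as chains of clusters and bins past the bound, were picked after their values were seen. The arm, the regions and the rules were chosen with earlier results of these data known. No release 5 annotation or sequence was used, so genes are not named. Python 3.11.15, numpy 2.4.6, scipy 1.17.1 and matplotlib 3.10.9 were used.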

Additional observations from a re-analysis of the deposited data

How the results depend on the processing

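Of 113 alternatives to 20 results, 63 kept the value within its margin (the replicate SD, the exact binomial interval, 1.5 times for counts, or 0.1 for the correlation) and, for tests, the direction and side of the threshold. The upper 50% by score gave 64.1 clusters per Mb, 10.7% covered and a median length of 1335 bp. Under this cut, common to all arms, 3L over X turned to 0.638 and 3L over 2L rose to 1.10. The replicate correlation by bin was then 0.189, and shares overlapping replicate 1, replicate 2, both and neither were 15.3%, 7.67%, 1.82% and 78.8%. Merging neighbours within 1000 bp gave 114.0 clusters per Mb, 26.0% covered, a median of 1631 bp, a variance over mean of 0.823, 3L over 2L of 0.994 and a longest cluster of 24613 bp, at 3L 13610358-13634970 and not at the 12137-bp one. The minimum length of the replicate lists gave 90.6 per Mb, 17.8% covered, 1747 bp, a variance over mean of 1.82, and shares of 30.3%, 15.8%, 4.67% and 58.6%. Overlap of 50% of the series-wide cluster gave 17.3%, 9.07%, 1.60% and 75.3%, and of both clusters 16.8%, 8.94%, 1.57% and 75.8%. Under the latter, 83.5% of replicate 1 and 81.3% of replicate 2 clusters met the series-wide list. With 1 Mb left out at each end the variance over mean was 1.75, in bins of 50 kb 1.16 and of 200 kb 2.09, where the correlation was 0.561. Each replicate list alone gave 16.4 to 30.1 clusters per Mb, 2.65 to 4.92% covered, medians of 1494 to 1547.5 bp, 0.54 to 0.68 in score and 19310 to 38164.5 bp in gap, a variance over mean of 1.29 to 1.39, and ratios of 1.05 to 1.06 to 2L, 0.791 to 0.866 to 3R and 1.21 to 1.44 to X. Fewer clusters enter these shorter lists by construction. Leaving out clusters by score or length also lowers density and covered share by construction. Merging likewise lowers the number of clusters and raises the covered share, and a stricter overlap rule lowers the shares that overlap. For the other changes the cause was not tested. For the median gap of 2913 bp the replicate SD exceeds the value, so it counts as kept at 8293 bp for the upper 50% by score, 5211 bp at the minimum length and 4626 bp from midpoint to midpoint, each over 1.5 times as long. The correlation without 1 bin and the counts without the longest cluster were added after the data were seen. No paired analysis was possible because the inputs have no cluster list of their own. They could enter only through the calls of their ChIP replicate, and whether they did is not stated. Depth is unknown, so a cluster missing from a replicate list may be one not detectable at its depth.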

Other observations

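Closely set clusters occurred on 3L as on the other interiors. Gaps under 1 kb made up 23.6% of series-wide gaps on 3L, 21.2% on 2L, 26.6% on 3R and 18.1% on X. With gaps of at most 1000 bp, 1261 of the 3066 series-wide clusters formed 537 chains of 2 or more, and 1805 stood alone. The chain with the most members was 3L 13610358-13634970, with 9 clusters over 24613 bp, 1 cluster in replicate 1 and 2 in replicate 2. It was followed by 3L 22304032-22322894 and 3L 22402864-22418824 with 7 clusters each, both close to the 12137-bp cluster, and by 3L 3422054-3433664 and 3L 8636896-8652478 with 6 each. The replicates listed 4 and 3 clusters in the second chain, 1 and 1 in the third, 2 and 0 in the fourth, and 4 and 1 in the fifth. The chains were picked after their values were seen.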
